A study of Mus musculus with 8 samples.

Results

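The endoplasmic reticulum (ER) machinery that imports, folds, glycosylates and discards secretory and membrane proteins was followed through 47 genes in mouse macrophages. The genes were taken by symbol from the deposited tables, 47 of 23354 symbols, and were sorted by textbook role into 17 folding genes (chaperones, their cofactors and disulfide isomerases), 16 translocation genes (signal recognition particle, Sec61 channel, translocon-associated proteins and signal peptidase), 7 genes of the oligosaccharyltransferase, and 7 genes of ER-associated degradation. All 47 had at least 1 FPKM in all 8 libraries, so all entered the tests of 10934 genes. FPKM, fragments corrected for transcript length and sequencing depth, can be set side by side between genes.

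Proteins bound for the ER membrane, the cell surface or secretion enter through Sec61, lose their signal peptide, receive an N-linked glycan and fold with the help of BiP, GRP94, calreticulin, calnexin and the protein disulfide isomerases. Chains that fail to fold are drawn back to the cytosol, where the HRD1 complex marks them for the proteasome. When unfolded proteins build up, the sensor IRE1 alpha, encoded by Ern1, splices the mRNA of Xbp1, whose product together with ATF6 raises the transcription of many of these genes. IL-4 turns macrophages toward the alternatively activated state, and one question the design poses is how this state compares with and without Ern1.

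The cells were bone marrow-derived macrophages from 8-week-old C57BL/6J mice, grown for 7 days in medium conditioned by L929 fibroblasts. The 4 groups were Ern1f/f control, Ern1f/f IL-4, Ern1f/fLyz2-Cre control and Ern1f/fLyz2-Cre IL-4, with 2 libraries each, numbered 1 and 2 (below, set 1 and set 2). IL-4 was given at 20 ng/ml for 24 hours, and the control groups had none. All groups carry loxP-flanked Ern1 alleles, and the Cre groups add a recombinase driven by the myeloid gene Lyz2, so the deletion is limited to cells that use this promoter, and no group with Cre alone was analysed here. Groups follow the titles of the samples. The genotype field of the labels goes against the title in 4 of 8 libraries, so every genotype comparison below holds only as far as the titles do. The labels do not tell what is shared by libraries of one number, or whether the 2 libraries of a group come from separate mice, so p-values measure the spread between these libraries, which may be technical.

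The libraries of set 1 and set 2 stood apart more than any treatment: 3657 genes (33.4% of those tested) differed between the numbers by limma. The width of the authors' confidence intervals implied 21500000 to 37900000 fragments per library, with the lowest depth in Ern1f/fLyz2-Cre control replicate 2. Macrophage genes were high in every library (Csf1r at 356 to 870 FPKM, Cd68 at 669 to 1001 FPKM), while no gene of the T or NK cell, dendritic or mast cell lists had enough signal to be tested. Lists of plasma or B cells (4 of 8 genes tested) and neutrophils (2 of 8 tested) did have signal, and their levels are given beside the IL-4 result. The 8 fibroblast markers, 7 of them tested, summed to 113 to 670 FPKM in set 1 and to 2.82 to 10.3 FPKM in set 2. In set 1 the sum was lower with IL-4, at 113 and 315 FPKM against 247 and 670 FPKM in the controls. Ern1 itself was at 11.5 and 9.55 FPKM in Ern1f/f control cells and at 14.3 and 12.7 FPKM in Ern1f/fLyz2-Cre control cells. With IL-4 it was at 10.2 and 9.11 FPKM and at 7.43 and 10.98 FPKM in the same order. The value covers the whole gene and the labels do not name the deleted exons, so it does not check the deletion. Lyz2, the gene that drives Cre, was lower in the library titled Ern1f/fLyz2-Cre within each treatment and number, at 10949 against 18114 FPKM and 2171 against 17415 FPKM in control cells, and was not called (adjusted p = 0.9999 by limma, averaged).

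The 47 genes were abundant. Their mean over the 8 libraries ran from 4.48 FPKM for Srp54a, a subunit of the signal recognition particle with near-identical paralogs that could share its reads, to 449 FPKM for Calr, the lectin chaperone calreticulin. The median of the 47 means was 43.5 FPKM, and the median member stood at the 85.4th percentile of all genes tested. By role the median of the means was 51.1 FPKM for folding, 42.2 FPKM for translocation, 52.4 FPKM for the oligosaccharyltransferase and 30.9 FPKM for degradation. The authors' 95% confidence interval of a single value, which covers counting error, had a half-width from 0.975% of the value (Calr) to 11.9% (Txndc11).

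**Figure D1:**
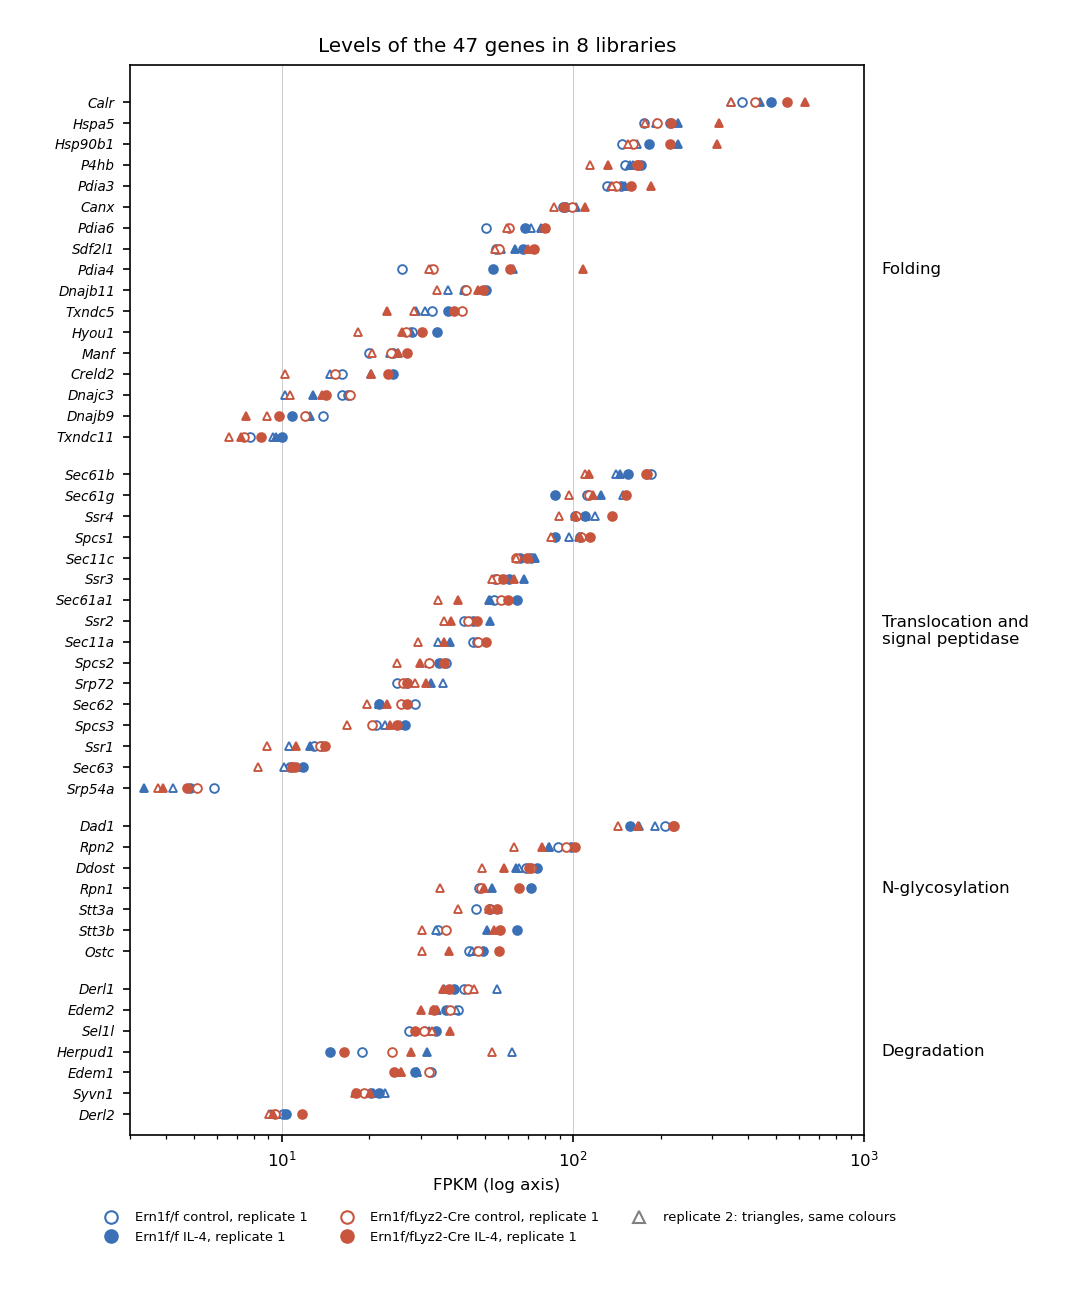
FPKM (log axis) of each of the 47 genes in each of the 8 libraries, sorted by role and by mean level, with colour for genotype, filled points for IL-4, circles for replicate 1 and triangles for replicate 2. Levels run from about that of Srp54a (mean 4.48 FPKM) to that of Calr (mean 449 FPKM), and for most genes the spread over the 8 libraries is small beside the spread between genes.

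With IL-4, averaged over genotypes and with the replicate number held as a block, 6 members were called higher and Herpud1 was called lower. The 6 were the folding genes Pdia4, Creld2, Hsp90b1, Calr and Sdf2l1 and the catalytic oligosaccharyltransferase subunit Stt3b. Without the block no member passed an adjusted p of 0.05, against 0.841% of all genes, although 11 of the 47, and 1522 of all 10934 genes, had an unadjusted p under 0.05. With the block 7 members passed, and 12.7% of all genes did so, a share near that of the members. Split by direction, 6 members were higher (5.88% of all genes were) and 1 was lower (6.86% of all genes were).

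Pdia4 encodes ERp72, a protein disulfide isomerase that works beside BiP, and lies at chr6:47796141-47813512 (mm10). It was at 25.9 and 32.5 FPKM in Ern1f/f control cells and at 53.2 and 62.4 FPKM with IL-4, and at 33.2 and 32.2 FPKM in Ern1f/fLyz2-Cre control cells and at 61.0 and 108.5 FPKM with IL-4. The 4 control libraries lay close together and below all 4 IL-4 libraries, of which Ern1f/fLyz2-Cre IL-4 replicate 2 was highest. The difference in log2(FPKM + 1), averaged over genotypes, was 1.13 (SE 0.20, adjusted p = 0.0816 by limma), and with the block its SE was 0.14 and the adjusted p 0.00591. Without the highest library the blocked difference was 0.97 with an adjusted p of 0.0211.

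Stt3b encodes one of the alternative catalytic subunits of the oligosaccharyltransferase, the one that glycosylates sites after the chain has left the channel, and lies at chr9:115242582-115310421. Its levels were 34.5 and 33.9 FPKM in Ern1f/f control cells, 64.1 and 50.7 FPKM with IL-4, 36.6 and 30.3 FPKM in Ern1f/fLyz2-Cre control cells, and 56.3 and 53.5 FPKM with IL-4. Control and IL-4 libraries did not overlap in either genotype. The averaged difference was 0.71 on the log2 scale (SE 0.12, adjusted p = 0.0684 by limma, and 0.00563 with the block). Stt3a, the alternative catalytic subunit that acts on the chain as it enters, was at 46.5, 51.8, 51.4 and 40.2 FPKM in the control libraries and at 51.7, 55.2, 54.8 and 51.6 FPKM in the IL-4 libraries. These ranges overlap, and the averaged difference of 0.17 (SE 0.11) was not called. The ratio of Stt3b to Stt3a was therefore below 1 in every control library, at 0.654 to 0.753, and stood at 0.918 to 1.24 in the IL-4 libraries.

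Creld2 encodes an ER-resident protein with disulfide isomerase activity that is known as an ER stress target. It was at 16.1, 14.7, 15.3 and 10.3 FPKM in the control libraries (Ern1f/f replicates 1 and 2, then Ern1f/fLyz2-Cre replicates 1 and 2, an order kept from here on) and at 24.1, 20.2, 23.2 and 20.3 FPKM with IL-4. All 4 IL-4 libraries were above all 4 controls. The difference was 0.62 on the log2 scale (SE 0.15, adjusted p = 0.153 by limma, and 0.00951 with the block).

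Hsp90b1, the ER paralog of HSP90 known as GRP94, was at 147, 166, 160.4 and 155 FPKM in the control libraries and at 183, 230.0, 215 and 313 FPKM with IL-4. Calr was at 382, 348, 423 and 349 FPKM and, with IL-4, at 480.0, 438, 543 and 627 FPKM. Neither gene overlapped between control and IL-4, and in both the highest value was that of Ern1f/fLyz2-Cre IL-4 replicate 2. The averaged log2 differences were 0.55 (SE 0.16) and 0.47 (SE 0.11), with adjusted p of 0.199 and 0.156 by limma and of 0.0253 and 0.0319 with the block. Without that highest library the blocked differences were 0.45 and 0.37 with adjusted p of 0.0779 and 0.0788.

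Sdf2l1, a cofactor of BiP, rose least among the 6 genes: from 54.3, 56.6, 55.7 and 54.0 FPKM to 67.2, 63.5, 73.6 and 70.3 FPKM. The controls spanned under 3 FPKM, and no IL-4 library fell within that span. The difference was 0.31 on the log2 scale (SE 0.08, adjusted p = 0.184 by limma, and 0.0415 with the block). In 8 blocked fits that each left out 1 library, Pdia4, Stt3b and Creld2 passed in 8 of 8, Hsp90b1 in 2, Calr and Herpud1 in 1 each, and Sdf2l1 in 0.

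**Figure D2:**
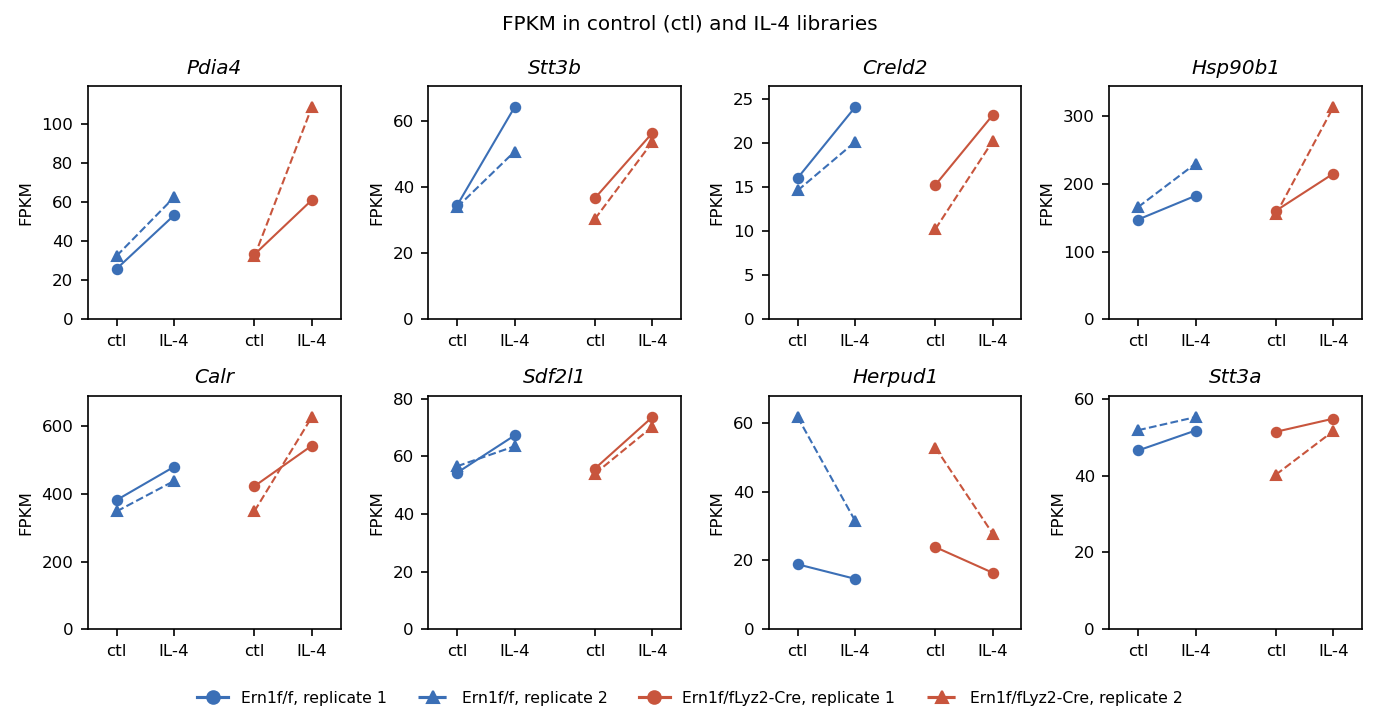
FPKM (linear axes from 0) of 8 genes in each library, with control and IL-4 libraries of the same genotype and replicate number joined by a line. Pdia4, Stt3b, Creld2, Hsp90b1, Calr and Sdf2l1 lie higher in all 4 IL-4 libraries than in all 4 controls, while Herpud1 lies lower within every joined pair but overlaps between sets, and Stt3a overlaps between control and IL-4.

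Hspa5, which encodes BiP, the Hsp70 of the ER and the gene most often used as its stress marker, did not pass in either fit. It was at 175, 192, 195 and 177 FPKM in the control libraries and at 215, 230, 217 and 318 FPKM with IL-4. No IL-4 library overlapped the controls, yet the difference of 0.39 (SE 0.14, and 0.12 with the block) had an adjusted p of 0.316 by limma and of 0.0876 with the block, and 1 IL-4 library stood well above the other 3. Pdia3, the isomerase that partners calreticulin and calnexin, was likewise higher in all 4 IL-4 libraries (147 to 185 FPKM against 131 to 141 FPKM) without a call. Canx, the membrane-bound partner of calreticulin, was at 85.8 to 98.9 FPKM in the controls and at 93.0 to 110.2 FPKM with IL-4, and these ranges overlap. Dnajb9, the J-domain cofactor ERdj4, for which the spliced form of Xbp1 is known to be needed, was at 13.9, 12.2, 11.98 and 8.86 FPKM in the controls and at 10.8, 12.5, 9.80 and 7.504 FPKM with IL-4. It was lower with IL-4 in 3 of the 4 comparisons within a genotype and a number, and its averaged difference of -0.20 (SE 0.14) was not called.

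The promoters were searched for the exact letters of response elements, mostly of the unfolded protein response, and 7 matches are printed for called members and for Hspa5. RefSeq promoters of build GRCm38.p6 (250 bases before to 50 bases after the gene start) were at hand for 39 of the 47 genes, in 44 windows. Derl1, Hyou1, Manf, Ostc, Sec11c, Sec61a1, Spcs3 and Ssr2 had none and were not searched. The search took 5 motifs on both strands. The ER stress response element, ERSE (CCAAT and CCACG with 9 bases of any kind between them), is bound by ATF6 and XBP1 with NF-Y, and ERSE-II (ATTGG and CCACG with 1 base between them) is its shorter relative. Each stretch is written 5′ to 3′ on the gene's own strand with the motif in capitals, read from either strand, and 12 bases on each side.
Hspa5, ERSE, chr2:34772013-34772055, plus strand: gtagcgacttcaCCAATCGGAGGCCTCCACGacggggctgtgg
Calr, ERSE, chr8:84847063-84847105, minus strand: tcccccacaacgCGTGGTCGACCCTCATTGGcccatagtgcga
Hsp90b1, ERSE, chr10:86705626-86705668, minus strand: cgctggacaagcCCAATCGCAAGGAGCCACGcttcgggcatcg
Hsp90b1, ERSE, chr10:86705521-86705563, minus strand: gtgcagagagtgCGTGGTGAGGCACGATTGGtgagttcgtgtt
Creld2, ERSE, chr15:88819508-88819550, plus strand: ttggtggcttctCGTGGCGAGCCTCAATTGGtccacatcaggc
Herpud1, ERSE-II, chr8:94386365-94386399, plus strand: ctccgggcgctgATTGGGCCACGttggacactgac
Stt3b, STAT6 site, chr9:115310631-115310664, minus strand: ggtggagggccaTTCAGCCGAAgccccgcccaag

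ERSE was found in 0.119% of 32851 promoters and in those of 8 of the 39 matched members: Hspa5, Hsp90b1, Calr, Canx, Creld2, Pdia6 and Dnajc3 among 15 folding genes, and Syvn1 among 6 degradation genes. None of the 12 matched translocation genes and none of the 6 matched oligosaccharyltransferase genes held it. ERSE-II was in 0.0365% of promoters and in those of Herpud1 and Dnajb11. The core of the XBP1-bound UPRE (TGACGTGG) was in 0.676% of promoters and in those of Txndc5 and Txndc11, and the cyclic AMP response element (TGACGTCA) was in 1.79% and in no member's. The palindrome preferred by STAT6, the transcription factor activated by IL-4, is TTC and GAA with 4 bases between them. It was in 6.95% of promoters and in those of 4 of the 39 matched members, Stt3b, Sec61g, Txndc5 and Txndc11. Averaged over genotypes, FPKM + 1 of these 4 genes with IL-4 was 1.64, 1.01, 0.95 and 1.12 times that of the controls. Only Stt3b among them was called for IL-4. Of the 10 members with ERSE or ERSE-II, 9 were higher with IL-4 and Herpud1 was lower, with a median log2 difference of 0.30. Of the 29 matched members with neither, 21 were higher and the median was 0.11. Among the folding genes alone, 8 of 8 with a match were higher (median 0.37), and 5 of 7 without one were (median 0.16). Pdia4 and Stt3b, with the largest increases, had no exact ERSE or ERSE-II match. Creld2, Hsp90b1 and Calr, with the next largest increases, had a match, as did Herpud1, which was lower with IL-4. No match overlapped a match of another of these motifs in the members. These are exact matches of letters within the window and describe no binding, and a gene without a match may still carry a variant or more distant element.

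Among the degradation genes 1 was called, and it was lower with IL-4. Herpud1, a membrane protein that joins the HRD1 complex and lies at chr8:94386500-94395358, was at 18.9, 61.7, 23.9 and 52.8 FPKM in the control libraries and at 14.6, 31.5, 16.4 and 27.7 FPKM with IL-4. Within each genotype and number the IL-4 library was the lower one, but the levels of set 2 were so much higher that control and IL-4 libraries overlapped. The averaged difference was -0.68 on the log2 scale, with an SE of 0.49 and an adjusted p of 0.629 by limma without the block, and 0.15 and 0.0326 with it. Without Ern1f/fLyz2-Cre IL-4 replicate 2 the blocked difference was -0.54 with an adjusted p of 0.0967. Against Hspa5 in the same library, Herpud1 stood at ratios of 0.108 and 0.122 in the controls and of 0.0680 and 0.0755 with IL-4 in set 1, and at 0.321 and 0.298 and at 0.137 and 0.0871 in set 2.

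Derl1, a channel-like protein of the retrotranslocation step (chr15:57869502-57892418), was at 42.2, 54.7, 43.6 and 45.9 FPKM in the controls and at 39.1, 36.2, 37.6 and 35.7 FPKM with IL-4. All 4 IL-4 libraries were below all 4 controls, as in 7.23% of all genes, but the difference of -0.31 (SE 0.11) was not called without the block (adjusted p = 0.297 by limma) or with it (0.0959). Its paralog Derl2 was at 9.04 to 10.1 FPKM in the controls and at 9.33 to 11.7 FPKM with IL-4. Edem2, which trims mannose to mark glycoproteins for disposal, was lower with IL-4 in each genotype and number, with an averaged difference of -0.16 (SE 0.09) that was not called. Edem1, of the same family, was at 32.5, 29.1, 31.9 and 25.7 FPKM in the controls and at 28.6, 29.1, 24.3 and 25.7 FPKM with IL-4, lower in set 1 and level in set 2. The ligase gene Syvn1, which encodes HRD1, and its adaptor Sel1l did not move together with Herpud1: Syvn1 was at 20.2, 22.6, 19.2 and 17.8 FPKM in the controls and at 21.6, 20.5, 17.96 and 20.0 FPKM with IL-4. Sel1l was at 27.2, 31.2, 30.7 and 32.9 FPKM in the controls and at 33.8, 32.1, 28.7 and 37.8 FPKM with IL-4. For both, control and IL-4 libraries overlapped.

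The channel and the signal peptidase showed no called difference with IL-4 in either limma fit, and 1 of the 16 genes had an unadjusted p under 0.05 in each. Of all 10934 genes, 1522 had one without the block and 3275 with it. Sec61a1, the pore subunit, was at 53.4, 51.4, 56.7 and 34.3 FPKM in the controls and at 64.1, 51.9, 60.0 and 40.4 FPKM with IL-4. Sec61b, its small partner, was at 185, 141, 179 and 110.0 FPKM in the controls and at 155, 146, 179 and 114 FPKM with IL-4. Spcs2, a signal peptidase subunit, was at 36.7, 32.0, 32.1 and 24.9 FPKM in the controls and at 34.6, 35.1, 36.1 and 29.8 FPKM with IL-4. Control and IL-4 libraries overlapped for all 3 genes, while set 1 and set 2 did not overlap for Sec61a1 and Sec61b. The members of this class whose IL-4 libraries lay wholly above the controls were Ssr3, of the translocon-associated protein complex, and Spcs3, of the signal peptidase. Ssr3 was at 53.9, 56.8, 55.0 and 52.9 FPKM in the controls and at 60.3, 67.8, 57.6 and 62.7 FPKM with IL-4. Spcs3 was at 21.02, 22.7, 20.4 and 16.8 FPKM and, with IL-4, at 26.6, 25.5, 24.8 and 23.5 FPKM, with a difference of 0.30 and an adjusted p of 0.244 by limma and 0.0661 with the block.

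Apart from Stt3b, no subunit of the oligosaccharyltransferase was called. Rpn1, the ribophorin that ties the enzyme to incoming chains, came closest to a call: it was at 47.7, 48.3, 48.5 and 34.9 FPKM in the controls and at 71.7, 52.8, 65.5 and 49.7 FPKM with IL-4, with no overlap. Its difference was 0.41 (SE 0.17, adjusted p = 0.372 by limma, and 0.0504 with the block). Ddost, another shared subunit, was at 69.2, 65.1, 72.0 and 48.6 FPKM in the controls and at 75.5, 63.6, 70.8 and 58.2 FPKM with IL-4, and the groups overlapped. Rpn2, Ostc and Dad1 had averaged differences of 0.14, 0.18 and -0.09 and none was called.

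Set side by side, the classes differed in their medians. The median log2 difference with IL-4, averaged over genotypes, was 0.24 for folding (15 of 17 genes higher), 0.12 for translocation (13 of 16), 0.17 for the oligosaccharyltransferase (6 of 7) and -0.14 for degradation (3 of 7). Over all 47 genes it was 0.14, with 37 higher, and over all 10934 genes it was -0.03, with 4893 higher. Further genes of the same 4 pathways, given below, had class medians of -0.03, 0.00, 0.06 and -0.03 in the same order. The class medians of the 47 genes thus describe these members only. The medians of the 47 genes within set 1 and set 2 were 0.10 and 0.15. For degradation the medians within the sets were -0.16 and 0.00, so its lower median rests on set 1, while Herpud1 and Derl1 were lower in both. In 11 members the 4 IL-4 libraries lay above the 4 controls (6.98% of all genes did so): Hspa5, Hsp90b1, Calr, Pdia3, Pdia4, Sdf2l1, Creld2, Ssr3, Spcs3, Rpn1 and Stt3b. The IL-4 library was higher within every genotype and number for 23 members (17% of all genes) and lower for 3, Herpud1, Derl1 and Edem2 (23.5% of all genes).

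Markers of other cells moved with IL-4 in the same libraries. The summed fibroblast list was lower with IL-4 in set 1 as given above and also in set 2, at 9.69 against 10.3 FPKM in Ern1f/f and at 2.82 against 4.67 FPKM in Ern1f/fLyz2-Cre cells. The summed plasma or B cell list, whose source cells are rich in this machinery, was at 46.2, 32.9, 71.6 and 43.0 FPKM in the controls and at 30.3, 21.9, 44.0 and 29.7 FPKM with IL-4. Sdc1, at 16.1 to 36.9 FPKM, made up the greater part of most of these sums. All 4 of its tested genes were lower in every comparison within a genotype and number, with a median of -0.43. Of these, Cd79b of the B cell receptor was called with the block (-0.86, SE 0.13, adjusted p = 0.0120 by limma), and the B cell gene Ms4a1 was under 1 FPKM in all 8 libraries. S100a8, one of the 2 tested neutrophil genes, was called lower with the block (-1.02, SE 0.16, adjusted p = 0.0124), as were the macrophage genes Cd14 (-1.67, adjusted p = 0.0105) and Fcgr1 (-0.95, adjusted p = 0.0101). Without the block none of these 4 genes was called (adjusted p = 0.0947 by limma for Cd14, and 0.187 to 0.788 for the others). The summed neutrophil list was at 21.3, 40.1, 26.4 and 30.3 FPKM in the controls and at 6.04, 19.8, 16.9 and 20.2 FPKM with IL-4. S100a9, its other tested gene, had an averaged difference of -0.05. In both sets of Ern1f/fLyz2-Cre cells S100a9 was higher with IL-4, at under 1 FPKM. Of the 8 macrophage genes, 7 were lower on average and Csf1r was higher (0.23). The part of these cell types in the differences of the 47 genes was not tested, and in bulk RNA fewer cells of a type cannot be told apart from less RNA per cell.

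**Figure D3:**
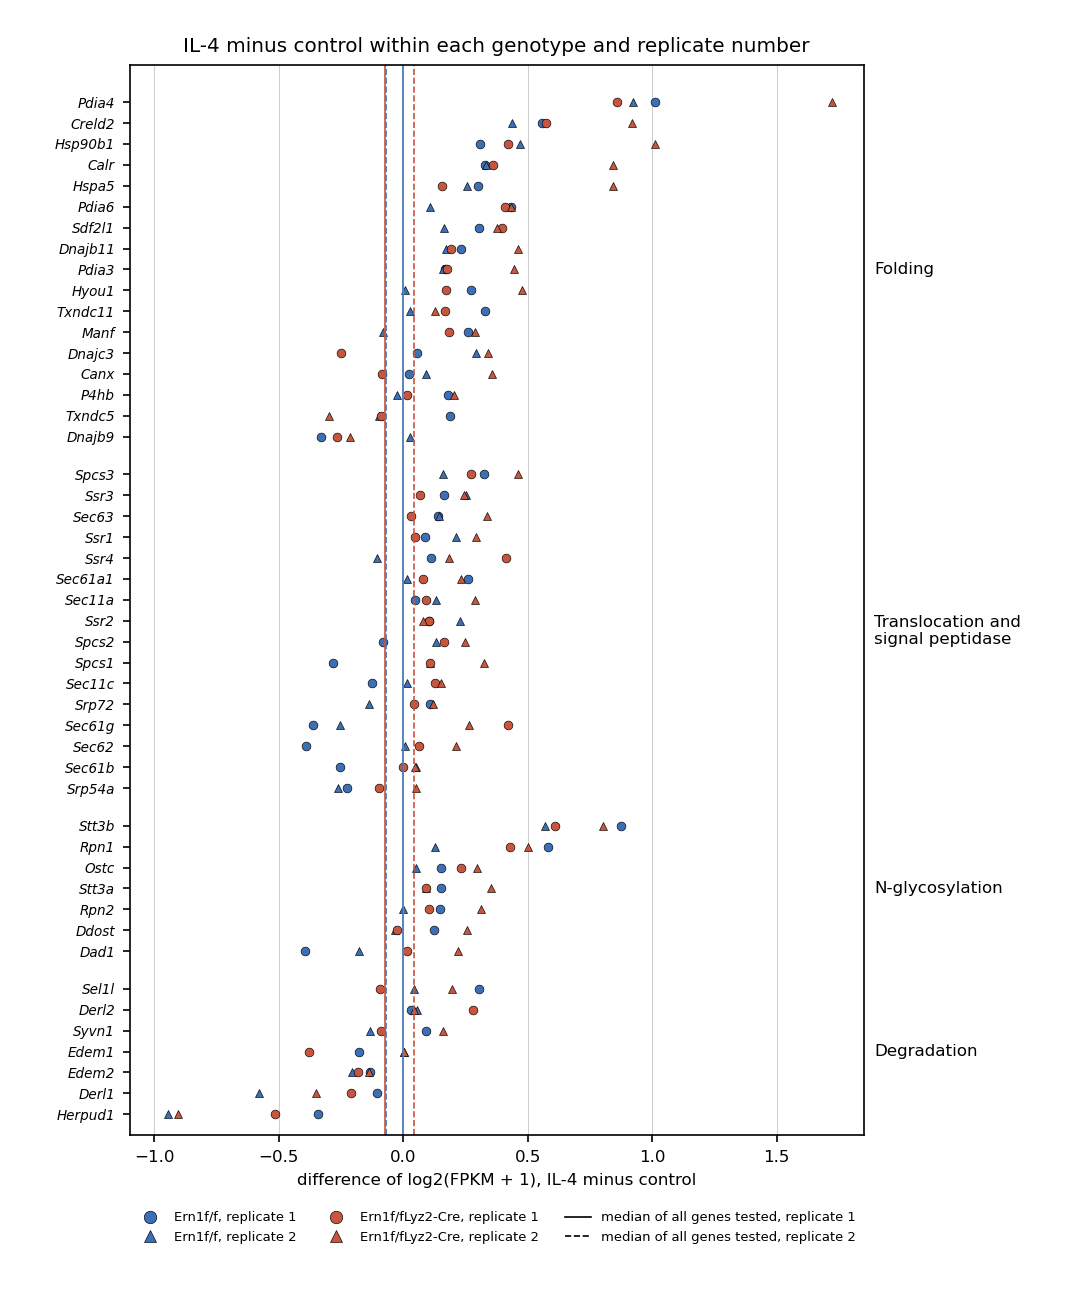
Difference in log2(FPKM + 1), IL-4 minus control, of each gene within each genotype and replicate number, by role, with vertical lines at the medians of all genes tested. The folding genes Pdia4, Creld2, Hsp90b1 and Calr and the oligosaccharyltransferase gene Stt3b lie above 0 in all 4 comparisons, and Herpud1 and Derl1 below 0 in all 4. The translocation genes lie mostly above 0, with 9, 14, 12 and 16 of 16 higher in the 4 comparisons (Ern1f/f and Ern1f/fLyz2-Cre in set 1, then in set 2). Their medians are 0.07, 0.09, 0.08 and 0.24 in the same order, and single points reach 0.46 (Spcs3) and -0.39 (Sec62).

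One genotype at a time, IL-4 gave no called member without the block (0% of all genes in Ern1f/f and 0.0549% in Ern1f/fLyz2-Cre; 2 and 8 members, and 673 and 933 of all 10934 genes, had an unadjusted p under 0.05). With the block, Stt3b passed in Ern1f/f cells (difference 0.72, SE 0.12, adjusted p = 0.0397 by limma), where 2.12% of all genes passed. In Ern1f/fLyz2-Cre cells Pdia4 (1.29, SE 0.20, adjusted p = 0.0284), Creld2 (0.74, SE 0.13, adjusted p = 0.0365) and Stt3b (0.70, SE 0.12, adjusted p = 0.0365) passed, where 3.32% of all genes did. In Ern1f/f cells Pdia4 and Creld2 differed by 0.97 and 0.50 with adjusted p of 0.0683 and 0.113. These calls rest on few libraries: in 8 blocked fits that each left out 1 library, Stt3b in Ern1f/f cells and Creld2 in Ern1f/fLyz2-Cre cells passed in 0, and Pdia4 and Stt3b in Ern1f/fLyz2-Cre cells passed in 2. A gene that passed in one genotype and missed in the other is not shown to respond differently, and the test of that difference follows.

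The interaction, the IL-4 difference in Ern1f/fLyz2-Cre cells minus that in Ern1f/f cells, was called for no member and no other gene in either limma fit, and no member had an unadjusted p under 0.05. Its median over the 47 genes was 0.12, with -0.05 in set 1 and 0.23 in set 2, against 0.01, -0.08 and 0.11 over all genes. Hspa5, Hsp90b1, Calr and Pdia4 had interactions of -0.14, 0.12, 0.03 and -0.15 in set 1 and of 0.59, 0.54, 0.51 and 0.80 in set 2. Hspa5 and Pdia4 thus turned direction between the sets, Hsp90b1 and Calr did not, and in set 2 Ern1f/fLyz2-Cre IL-4 replicate 2 held the highest value of all 4 genes.

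Between genotypes no member was called in control cells, with IL-4, or averaged over treatments, in either fit (0% of all genes without the block, and with it 0%, 0.00915% and 0%). At an unadjusted p under 0.05 and without the block, 0 members passed in control cells and with IL-4, and Dnajb9 and Txndc11 did when averaged. In these 3 comparisons 27, 42 and 52 of all 10934 genes passed. With the block 0 passed in control cells, and 3 of the 47 (189 of all 10934 genes) passed with IL-4: Pdia4 (0.49, SE 0.20) and Calr (0.35, SE 0.14) were higher and Dnajb9 (-0.40, SE 0.16) was lower in Ern1f/fLyz2-Cre. With the block and averaged over treatments, Dnajb9 and Txndc11 passed, as 2 of the 223 genes that did so among all 10934. In control cells the direction turned with the set: 33 of 47 genes were higher in Ern1f/fLyz2-Cre in set 1 (median 0.05) and 43 of 47 were lower in set 2 (median -0.26). Over all genes 66.9% were higher in set 1 (median 0.05), and 62.4% were lower in set 2 (median -0.05). In set 2 all 16 translocation and all 7 oligosaccharyltransferase genes were lower, with medians of -0.28 and -0.42, and Ern1f/fLyz2-Cre control replicate 2 is the library with the lowest depth. Without it the median over the 47 genes in control cells was 0.051, against -0.12 with it. Over all genes the median went from -0.0013 to 0.077 without the block and to 0.039 with it. Leaving this library out leaves its group with set 1 alone, so the change does not test depth. The fibroblast markers turned with the set in the same way, with a median genotype difference of 1.32 in set 1 and -0.30 in set 2 and sums of 670 against 247 FPKM and of 4.67 against 10.3 FPKM. The part of depth or of fibroblasts in this was not tested.

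**Figure D4:**
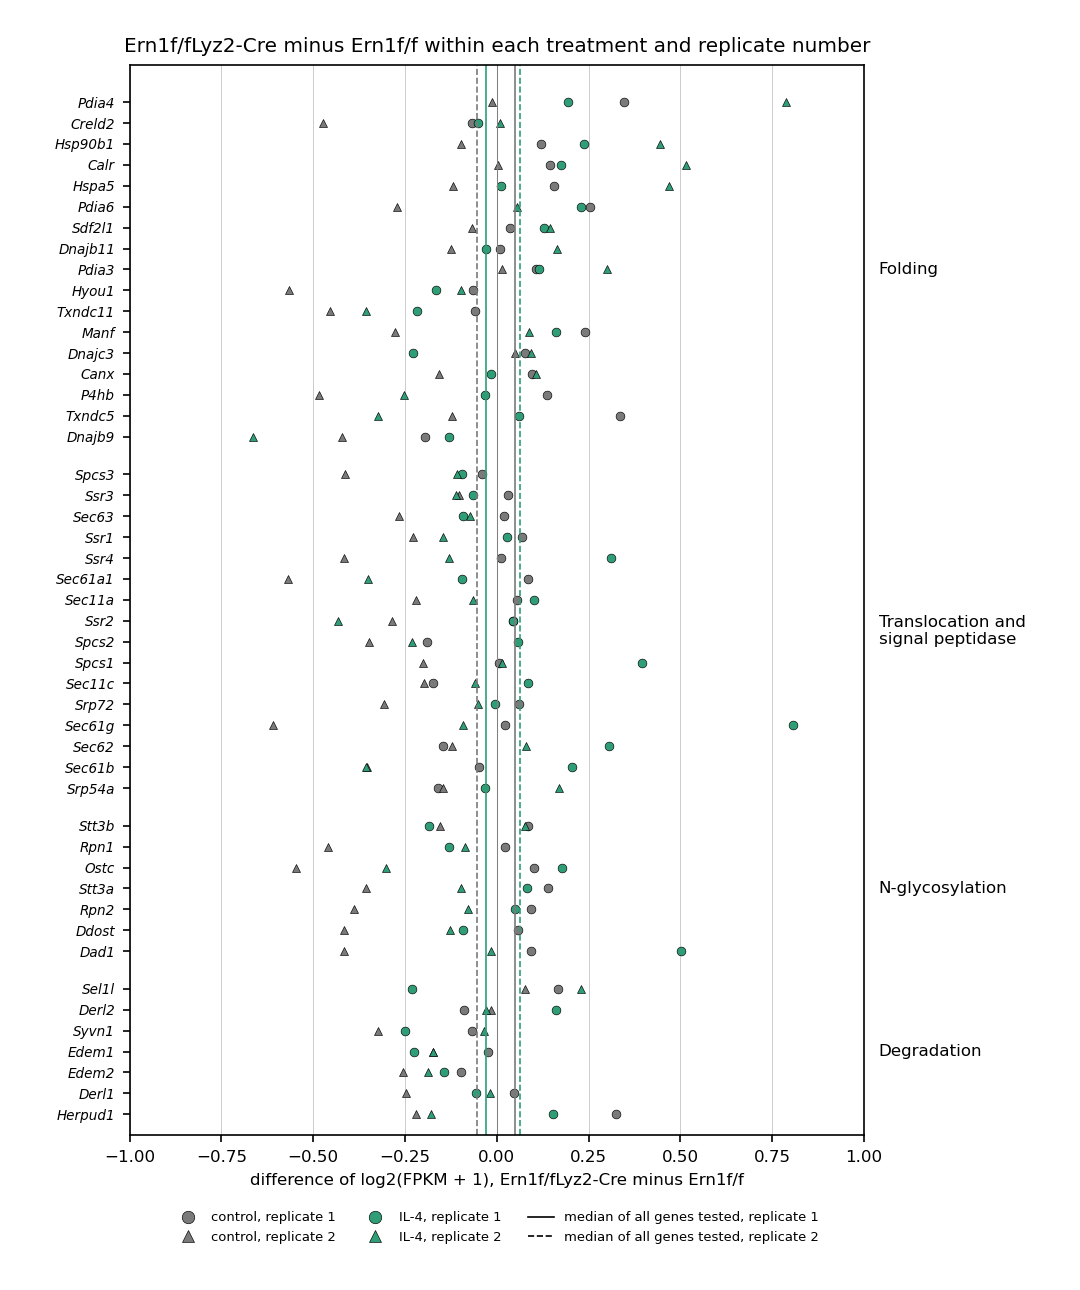
Difference in log2(FPKM + 1), Ern1f/fLyz2-Cre minus Ern1f/f, of each gene in control and in IL-4 cells within each replicate number, by role, with vertical lines at the medians of all genes tested. In control cells the points of set 2 lie mostly below 0 (43 of 47) and those of set 1 mostly above 0 (33 of 47), and Dnajb9, Edem2 and Syvn1 lie below 0 in all 4 comparisons.

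A few genes kept one direction between genotypes. Dnajb9, whose values are given above, was lower in Ern1f/fLyz2-Cre within each treatment and number, with an averaged difference of -0.35 (SE 0.14, 95% confidence interval -0.69 to -0.01, adjusted p = 0.9999 by limma). Hyou1, an Hsp110-like nucleotide exchange factor of BiP, Txndc11, a thioredoxin-domain protein, the peptidase subunit Spcs3, and the degradation genes Edem1, Edem2 and Syvn1 were also lower in all 4 comparisons. These are 7 of 47 genes, and 4.49% of all genes did the same. Syvn1 was the one member whose 4 Ern1f/fLyz2-Cre libraries lay below all 4 Ern1f/f libraries (17.8 to 20.0 against 20.2 to 22.6 FPKM), as in 0.146% of all genes, with a difference of -0.17 (SE 0.09) that was not called. Calr and Pdia3 were higher in all 4 comparisons, as were 6.55% of all genes. Of 5 genes listed as dependent on XBP1 (Dnajb9, Dnajb11, Dnajc3, Edem1 and Pdia6), 3 were lower on average in Ern1f/fLyz2-Cre and the median difference was -0.0020. The interval of a single gene was wide, as that of Dnajb9 shows, so that small differences between genotypes were not detectable.

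The replicate number itself was called for 10 of the 47 genes, 2 higher and 8 lower in set 2 (33.4% of all genes were called, 10.1% higher and 23.3% lower). The genotype field gives Ern1f/f for all libraries numbered 1 and Ern1f/fLyz2-Cre for all numbered 2, so if that field rather than the titles held, these would be differences between genotypes. Herpud1 differed most, by 1.14 on the log2 scale (SE 0.15, adjusted p = 0.00285 by limma), and Sec11a, a catalytic subunit of signal peptidase, was lower by -0.46 (SE 0.09, adjusted p = 0.00993). Sec11a was at 45.4, 46.9, 47.2 and 50.3 FPKM in set 1 and at 34.4, 37.8, 29.4 and 36.1 FPKM in set 2 (Ern1f/f control and IL-4, then Ern1f/fLyz2-Cre control and IL-4). Both passed in all 8 fits that left out 1 library. The other genes lower in set 2 were Sec61b (-0.46), Txndc5 (-0.42), Dnajc3 (-0.42), Sec61a1 (-0.40), Srp54a (-0.35), Rpn2 (-0.33) and Ssr1 (-0.31). In the same order of libraries, Txndc5, a disulfide isomerase of the thioredoxin family, was at 32.7, 37.3, 41.6 and 39.0 FPKM in set 1 and at 31.1, 29.0, 28.5 and 23.0 FPKM in set 2. Dnajc3, a cochaperone also known as P58IPK, was at 16.2, 16.8, 17.1 and 14.2 FPKM and at 10.3, 12.8, 10.6 and 13.7 FPKM. For both genes the sets did not overlap. Srp54a was at 5.84, 4.85, 5.13 and 4.72 FPKM in set 1 and at 4.24, 3.37, 3.74 and 3.92 FPKM in set 2. Ssr1, of the translocon-associated complex, was at 12.9, 13.7, 13.6 and 14.0 FPKM and at 10.6, 12.4, 8.93 and 11.2 FPKM. Rpn2, the second ribophorin, was at 88.9, 98.4, 94.9 and 102 FPKM and at 82.6, 82.6, 62.8 and 78.2 FPKM. Srp72 of the signal recognition particle was the other gene higher in set 2 (0.28), at 24.9, 26.9, 26.0 and 26.8 FPKM in set 1 and at 35.8, 32.4, 28.7 and 31.3 FPKM in set 2. Fibroblast markers differ between the sets in the same libraries, as given above, and their part in these differences was not tested.

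Among 88 further genes of the same 4 pathways (85 tested), IL-4 averaged over genotypes gave 2 calls with the block and none without it. Of all genes 12.7% and 0.841% were called in these fits. Without the block 4 of the 85 had an unadjusted p under 0.05, as did 1522 of all 10934 genes. Tusc3, a subunit of the oligosaccharyltransferase that works with Stt3b, was at 36.9, 23.4, 38.9 and 26.6 FPKM in the controls and at 48.3, 30.6, 46.6 and 33.5 FPKM with IL-4, and rose by 0.33 (SE 0.25, adjusted p = 0.641 by limma, and 0.07 and 0.0355 with the block). It was higher in every comparison within a genotype and number, while the sets differed in level. Selm, an ER selenoprotein, fell from 25.6, 17.3, 28.2 and 16.5 FPKM to 13.2, 12.7, 15.6 and 10.9 FPKM, with a difference of -0.67 (SE 0.22, adjusted p = 0.266, and 0.12 and 0.0170 with the block). The median over the 85 genes was 0.00, with 42 higher and 43 lower. By class it was -0.03 for folding (8 of 18 higher) and 0.00 for translocation (11 of 20). For N-glycosylation it was 0.06 (16 of 25) and for degradation -0.03 (7 of 22). Of 14 regulators of the unfolded protein response none was called in either limma fit, and their median was -0.14. Without and with the block, 1 and 3 of them had an unadjusted p under 0.05, against 1522 and 3275 of all 10934 genes. Xbp1 was at 40.5, 46.3, 41.9 and 37.4 FPKM in the controls and at 46.1, 42.7, 46.5 and 39.5 FPKM with IL-4, a difference of 0.07 (SE 0.11), and this total does not part the spliced from the unspliced form. Ern1 differed by -0.32 with IL-4 (SE 0.14, adjusted p = 0.401).

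The tables count fragments by gene without a stated use of strand. In GENCODE release M21, 19 of the 47 genes share exonic bases with another gene, so part of their fragments could belong to the neighbour. For Pdia4 this is only a microRNA gene, and for Hsp90b1 a processed transcript, a microRNA gene and a pseudogene. Protein-coding neighbours include Nmb for Sec11a and Rbm15b for Manf on the same strand, and Mrpl49 for Syvn1 on the opposite strand.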

How the data were processed

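FPKM and its confidence interval were deposited by the authors per gene and library; the tools named per the submitters' processing notes are TopHat (version 1.4.1) and Cufflinks (version 1.3.0), the build is mm10, and the gene models are not given in the sources used here. Each table held 23838 rows, and rows sharing a symbol were summed. The members and lists were chosen with earlier results of these data known. Tests covered genes reaching 1 FPKM in 2 or more libraries and used log2(FPKM + 1), which understates changes of low genes; the tool was limma 3.58.1 in R 4.3.3 (4 group means, eBayes with trend, two-sided, Benjamini-Hochberg over 10934 genes, threshold 0.05). The fit was tested on simulated data. The labels do not say that the number pairs libraries, but its differences correlated across genes between all 6 pairs of groups (r = 0.69 to 0.83) and the leading principal component, with 59.0% of the variance, separated set 1 from set 2, so values with the number as a block stand beside the results. Values in all libraries are given for members called in any fit, for standard members of each role, and for members without overlap at the largest IL-4 differences of each class. Alternatives covered the pseudocount, filter, scaling, trend, summing of rows, grouping by the genotype field, and leaving out each library. Depth in fragments was implied from the deposited intervals, and intervals cover counting error only. Plots came from Python 3.11.15 with matplotlib 3.10.9.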

Additional observations from a re-analysis of the deposited data

Results flagged for a closer look

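Sec61g, the smallest subunit of the Sec61 channel, was lower with IL-4 in both sets of Ern1f/f cells and higher in both sets of Ern1f/fLyz2-Cre cells. It was at 111 and 149 FPKM in Ern1f/f control cells and at 86.5 and 124 FPKM with IL-4, and at 113 and 97.1 FPKM in Ern1f/fLyz2-Cre control cells and at 152 and 117 FPKM with IL-4. The difference between the responses was 0.65 on the log2 scale (SE 0.36, 95% confidence interval -0.23 to 1.53, adjusted p = 0.99999 by limma), so the interaction did not pass. Dad1, a small membrane subunit of the oligosaccharyltransferase, did the same: it was at 207 and 191 FPKM in Ern1f/f control cells and at 157 and 169 FPKM with IL-4, and at 221 and 143 FPKM in Ern1f/fLyz2-Cre control cells and at 223 and 167 FPKM with IL-4. Its difference between responses was 0.40 (SE 0.35, 95% confidence interval -0.45 to 1.26, adjusted p = 0.99999). This pattern, lower in both sets of Ern1f/f and higher in both sets of Ern1f/fLyz2-Cre, was met by 344 genes (3.15% of those tested), 2 of them members, and the reverse by 97 genes (0.887%), none of them a member.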

How the results depend on the processing

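Of the members called for IL-4 averaged over genotypes, 0 passed without the block, 7 with the replicate block, and 1 with upper quartile or TMM scaling (Stt3b). With the block and either scaling, combinations chosen after seeing the data, 10 passed. Of all genes 0.841% passed without the block and 12.7% with it. The shares of all genes under the other settings of this section are not given, so a larger count there is not evidence about the members. Grouping by the genotype field, which parts the libraries as the replicate number does, gave 13 there, and 5 and 6 for IL-4 in Ern1f/f and Ern1f/fLyz2-Cre as that field names them. In Ern1f/f cells 0 became 1 with the block and with the block and either scaling, and in Ern1f/fLyz2-Cre cells 0 became 3. Over all fits that left out 1 library, with and without the block, the count was 0 to 5 for IL-4 averaged, 0 to 2 in Ern1f/fLyz2-Cre cells and 0 in Ern1f/f cells. Over the same fits the median of the members ranged from 0.045 to 0.21 averaged, from 0.048 to 0.38 in Ern1f/fLyz2-Cre cells and from -0.013 to 0.20 in Ern1f/f cells. By class it ranged from 0.18 to 0.32 for folding, 0.023 to 0.19 for translocation, 0.028 to 0.29 for the oligosaccharyltransferase and -0.21 to -0.062 for degradation. For genotype the median ranged from -0.26 to 0.051 in control cells, -0.091 to 0.056 with IL-4 and -0.13 to 0.022 averaged, with 0 members called in every fit. The median of the interaction ranged from -0.025 to 0.27, also with 0 called. For the replicate number 10 members were called, against 3 with no filter, 5 with upper quartile scaling and 2 to 6 when 1 library was left out. The causes were not tested. The block changed no other call of a member. With 2 libraries a group, small differences cannot be told from the spread.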
